A study of Homo sapiens with 24 samples.

Results

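The complement genes were followed across 8 treatment groups of HepG2, a cell line derived from a human liver tumor. The members were taken by symbol from a list of 38 complement components, receptors and regulators, and all 38 were among the 26475 gene symbols of the count files. The selection uses symbols and no measured value. RNA was sequenced in 24 libraries, 3 per group. The groups were DMSO (the solvent), ABBV-075 at 50 nM, ABBV-744 at 50 nM, ABBV-744 at 500 nM, interferon gamma (IFNg), and IFNg together with each of these 3 inhibitor treatments. ABBV-075 binds the bromodomains of the BET proteins, which read acetylated histones, and ABBV-744 is a BET inhibitor selective for the BD2 bromodomain. The article gives 12 h for ABBV-075 alone. The labels give no duration for any group and no IFNg dose. All groups were HepG2 cells grown in MEM with heat-inactivated serum and antibiotics. HepG2 cells are 1 tumor-derived line cultured without the other cells of the liver. The labels do not say that the 3 libraries of a group came from separate cultures, so the p-values measure the spread between these libraries, which may be technical.

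Complement is a cascade of plasma proteins, most of them made by hepatocytes, that coats microbes and damaged cells and can lyse them. The classical pathway starts when C1q activates the proteases C1R and C1S, the lectin pathway starts when mannose-binding lectin, ficolins or collectins act with the MASP proteases, and the alternative pathway runs through factor B (CFB) and factor D (CFD). All of these routes cleave C3 and C5 and can end in a membrane pore, while soluble and membrane-bound regulators hold the cascade back. Gamma-activated sites are DNA motifs known from genes that respond to IFNg, and C1R, C1S and SERPING1 are known interferon-responsive genes.

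Reads counted on genes ranged from 2978982 to 4304103 per library, and the complement genes took 0.153% to 0.255% of them, 5400 to 9236 reads per library. Levels are given in CPM, the count of a gene scaled to the TMM-normalized number of reads on genes in its library, as mean ± SD over n = 3 libraries. All 10 hepatocyte markers were present in every group, all 5 leukocyte markers were at 0 and the summed endothelial markers had 0 to 9 counts per library. The hepatocyte markers also moved between groups. Of the 10, 1 was called higher and 1 lower with ABBV-075, beside 19.8% and 19.6% of all genes tested. With IFNg these were 0 and 1, beside 2.76% and 0.695%. When ABBV-075 was added to IFNg they were 4 (APOB at a log2 fold change of 0.85 among them) and 5 (AHSG at -1.39 among them), beside 28.2% and 28.4%. With the GC correction described below, ABBV-075 gave 2 higher and 5 lower both alone and added to IFNg. Of all genes, 21.7% were then higher and 23.1% lower with ABBV-075 alone, and 27.0% and 28.9% when it was added to IFNg. In the test of whether ABBV-744 at 50 nM acted differently with IFNg, 4 were higher (25.0% of all genes) and 5 lower (26.5%). Among them were AFP at 1.23, SERPINA1 at -0.88 and AHSG at -1.23. With the GC correction 4 were higher (10.2% of all genes) and 4 lower (12.1%), and these values were 0.31, -0.39 and -0.73. ALB and APOA1 went from 0.56 and -0.53 to -0.11 and 0.05 and were not called, while TTR and TF went from -0.51 and -0.57 to -0.94 and -1.13. The part of the markers in the complement results was not tested. The treatments were checked on known targets. HEXIM1, which rises with BET inhibition, had a log2 fold change of 1.41 with ABBV-075, 0.29 (adjusted p = 0.0816) with ABBV-744 at 50 nM and 0.74 with ABBV-744 at 500 nM, and the interferon-induced gene IRF1 had a log2 fold change of 4.26 with IFNg. The libraries differed in how counts followed the GC content of genes. The slope of log2 CPM per 10 GC percentage points was 0.10 to 0.45 in the 6 libraries with ABBV-744 alone and -0.30 to -0.09 in the 6 libraries with IFNg and ABBV-744. It was 0.03 to 0.13 in DMSO, 0.06 to 0.24 with IFNg, -0.31 to 0.08 with ABBV-075, lowest in replicate 1, and -0.26 to -0.05 with IFNg and ABBV-075. For that reason a fit with the GC trend of each library taken out is given below beside the results that it moves, and is called the GC-corrected value. Bulk libraries cannot tell fewer cells that express a gene from less RNA per cell.

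The stretches before the transcription starts of 4 members that IFNg or the inhibitors moved are shown as examples. Each of the 4 has a gamma-activated site in the 250 bases before its start. Other members that moved, such as C2, C4BPA and C4BPB, are not shown. They are RefSeq sequences of GRCh38.p14, each written 5′ to 3′ on the strand of its gene, and capitals mark letters that match a searched motif. Positions are counted back from the base before the start, which is -1.
C1R: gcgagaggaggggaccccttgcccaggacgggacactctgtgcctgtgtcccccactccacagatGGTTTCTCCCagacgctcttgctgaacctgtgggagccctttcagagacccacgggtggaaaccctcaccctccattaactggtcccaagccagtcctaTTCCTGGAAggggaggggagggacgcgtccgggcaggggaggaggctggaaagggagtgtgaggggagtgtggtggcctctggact
C1RL: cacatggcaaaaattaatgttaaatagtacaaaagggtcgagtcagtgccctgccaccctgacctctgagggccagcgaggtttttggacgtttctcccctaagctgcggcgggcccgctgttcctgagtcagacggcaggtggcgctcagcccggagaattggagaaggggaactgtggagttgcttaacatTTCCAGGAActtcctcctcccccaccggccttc
CFB: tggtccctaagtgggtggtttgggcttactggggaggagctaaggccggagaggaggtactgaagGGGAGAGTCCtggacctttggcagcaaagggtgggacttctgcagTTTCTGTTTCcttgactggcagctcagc
VTN: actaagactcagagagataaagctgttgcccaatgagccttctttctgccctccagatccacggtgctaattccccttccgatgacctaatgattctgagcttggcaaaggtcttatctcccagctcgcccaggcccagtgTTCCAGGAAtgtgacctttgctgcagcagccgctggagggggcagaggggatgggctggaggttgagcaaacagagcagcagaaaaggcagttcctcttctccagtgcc

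The C1R stretch lies at chr12:7091894-7092143 on the minus strand, before the most downstream RefSeq start of the gene. It lies within the spans of C1R and C1RL, and all 250 of its bases are exonic in GENCODE. The C1RL stretch, at chr12:7109239-7109464 on the minus strand, has 226 bases, lies within the span of the antisense gene C1RL-AS1 and holds 0 exon bases. For CFB, 138 bases at chr6:31945845-31945982 on the plus strand are shown, from -250 to -113, of which 8 are exonic. The VTN stretch, at chr17:28370308-28370557 on the minus strand, lies within the spans of VTN, SARM1 and another gene and holds 0 exon bases. The motifs searched on both strands were the gamma-activated site TTCNNNGAA, the ISRE core, which is GAAA and GAAA separated by 2 bases (TTTC and TTTC on the other strand), and a NF-kappaB motif, which is GGGA and CC separated by 4 bases (GG and TCCC on the other strand), and none of the matches shown overlap each other. The gamma-activated site stood at -86 in C1R, -57 in C1RL and -109 in VTN, and CFB had one at -92, outside the stretch shown. In all, 10 of the 39 member starts in the RefSeq table held this motif in the 250 bases before the start (25.6%), beside 6.57% of all 35116 starts. These 10 starts belonged to 9 of the 26 members with an entry, C1R, C1RL, MASP2, MBL2, CFB, C7, C4BPB, VTN and CD59. Of these 9, C1R, C1RL and CFB were called higher with IFNg, the others were not called higher, and C7 was not tested. C2 and C4BPA were called higher with IFNg and had an entry without this motif. Whether the motif goes with the response to IFNg was not tested. The ISRE core was found at 1 member start (2.56%), that of CFB at -140, beside 3.02% of all starts, and the NF-kappaB motif at 4 member starts (10.3%) beside 22.6%. Members without an entry were C1S, C3, C4A, C4B, C8G, FCN3, SERPING1, CLU and CFHR2 to CFHR5. These matches describe letters and do not show a bound site.

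Of the 38 members, 24 had enough counts to be tested in at least 1 comparison and 18 in all of them. The other 14 were tested in none. C4A, C4B, FCN3, CFHR2, CFHR3, CFHR4, CFHR5, CR1 and C3AR1 were at 0 in all 24 libraries. C4A and C4B encode near-identical C4 chains, and reads that align to several places were not counted, so their level was not measured. For the CFHR genes, reads left out in this way and absent expression were not told apart. CFP, or properdin, had 1 read and C9 had 4 reads over all libraries. C6 and C7, which join the membrane pore, had at most 7 and 4 counts in a library, and the C5a receptor gene C5AR1 at most 4.

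Among the measured members, the plasma protein genes spanned more than 100-fold in level per length in DMSO. On the scale of CPM per kb of exon, VTN (vitronectin, which blocks pore insertion) was at 58.8 ± 7.80 and C3, the central component, at 55.7 ± 3.36, and the libraries of these genes overlapped. CFB followed at 39.9 ± 1.20. CLU (clusterin), C4BPA (the alpha chain of C4b-binding protein), CD59, CD46 and CFI came next, with means between 14.9 and 19.8, and neighbours in that order lay within their spread. C4BPB was at 10.3 ± 0.681, C2 at 9.20 ± 0.338 and C1RL at 8.39 ± 0.840. The lowest tested members were C1R at 0.809 ± 0.183, MASP1 at 0.227 ± 0.00839 and SERPING1 at 0.133 ± 0.0283. With IFNg the order at the top became C3 at 78.9 ± 10.9, CFB at 54.1 ± 3.19 and VTN at 50.1 ± 2.76, and C1R reached 11.8 ± 0.634 CPM per kb. C1S, at 3.11 ± 0.0926 in DMSO, reached 15.2 ± 1.06.

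**Figure D1:**
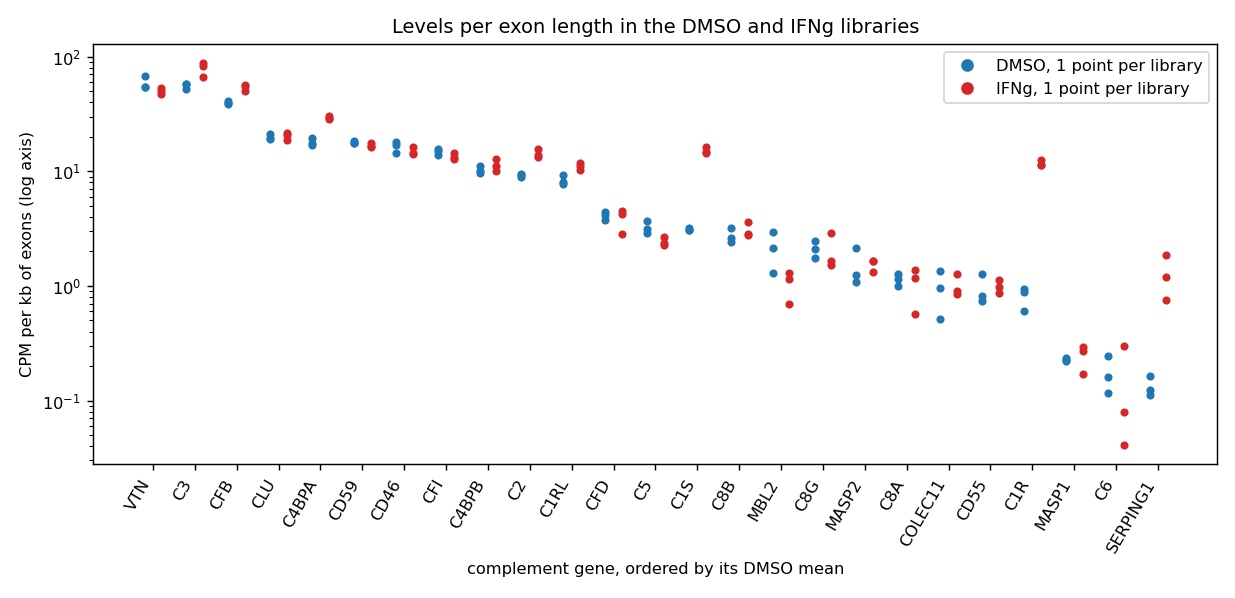
Level per length (CPM per kb of exon, log axis) of 25 members in the DMSO and the IFNg libraries, with 1 point per library and the genes ordered by their DMSO mean. C1R, C1S and SERPING1 stand apart between the groups, while most other members lie close to each other.

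The 8 groups were compared in 7 pairs against DMSO or against IFNg alone. The 4 comparisons with DMSO share its 3 libraries and the 3 comparisons with IFNg share the IFNg libraries, so they are not independent. A member was called when its p in edgeR's quasi-likelihood test, adjusted by Benjamini-Hochberg over all genes tested, was 0.05 or lower, without a fold threshold. With ABBV-075, 11 of 21 tested members were downregulated beside 19.6% of all genes tested, and 0 were upregulated beside 19.8%. Of the 11, C1R, MASP1, MBL2 and C8A had enough counts for the test in DMSO only. At those counts only a lower call was open to them. The median log2 fold change was -0.66 over the members and 0.03 over all genes. ABBV-744 at 50 nM upregulated 2 of 22 members (8.81% of all genes) and downregulated 5 (10.1%), with a median of -0.04. Scaled by library size only, the split was 1 up and 5 down. ABBV-744 at 500 nM upregulated 2 of 21 members (7.48% of all genes) and downregulated 7 (7.80%), with a median of -0.25. MBL2 at both doses and C8A at 500 nM had enough counts for the test in DMSO only. Only a lower call was open to them. IFNg upregulated 8 of 23 members beside 2.76% of all genes and downregulated 1 beside 0.695%, with a median of 0.10, and the split was 7 up and 2 down when scaled by library size only. Among the 8, SERPING1 had enough counts for the test in IFNg only, so only a higher call was open to it.

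Added to IFNg and set against IFNg alone, ABBV-075 downregulated 12 of 19 tested members beside 28.4% of all genes and upregulated 2 beside 28.2%. Of the 12, MASP2 had enough counts for the test with IFNg alone and not with the combination. Only a lower call was open to it. The median was -1.04 over the members and -0.00 over all genes. ABBV-744 at 50 nM downregulated 10 of 21 members (24.3% of all genes) and upregulated 3 (27.4%), with a median of -0.45. At 500 nM it downregulated 10 of 20 members (22.8% of all genes) and upregulated 2 (22.9%), with a median of -0.50. Over the 5 roles described next, the ABBV-075 calls without IFNg were all lower, beside 19.6% of all genes. They were 6 of 7 tested starter genes, 0 of 3 at the level of C3, 2 of 3 terminal components, 3 of 5 soluble regulators and 0 of 3 membrane regulators. With the GC correction the lower calls were 6, 0, 3, 4 and 2 in that order (23.1% of all genes). Then 1 soluble and 1 membrane regulator were higher (21.7%). C1R, MASP1, MBL2 and C8A could be called lower only. Differences between roles were not tested. The 8 genes that IFNg upregulated, beside 2.76% of all genes, were 4 of 8 starter genes, 2 of 3 at the level of C3 and 2 of 6 soluble regulators.

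The article's thresholds, which add a log2 fold change of 1.5 or more in size, left the members with the largest changes. With ABBV-075 these were C4BPB, MBL2 and C8A, 3 lower members (3.19% of all genes) and 0 higher (1.09%). MBL2 and C8A had at most 7 and 6 reads in an ABBV-075 library and were tested through their DMSO counts only. With ABBV-744 alone the remaining member was MBL2, 1 lower at 50 nM (0.189% of all genes, 0.0900% higher) and 1 lower at 500 nM (0.315%, 0.0270% higher). MBL2 had at most 10 and 11 reads in a library at these doses and was again tested through its DMSO counts only. With IFNg, C1R, C1S and SERPING1 were the 3 higher members (0.820% of all genes), and 0 were lower (0.0267%). SERPING1 had at most 5 reads in a DMSO library and was tested through its IFNg counts only. Against IFNg, ABBV-075 left 6 lower members, C1R, C1S, MASP2, C4BPA, C4BPB and VTN (3.75% of all genes), and 0 higher (2.41%). MASP2 had at most 10 reads in a library of IFNg with ABBV-075 and was tested through its counts with IFNg alone. ABBV-744 left C1R and VTN at 50 nM (2 lower, 0.368%, and 0 higher, 1.94%) and C1R, C1S and VTN at 500 nM (3 lower, 0.820%, and 0 higher, 1.29%).

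With the GC correction and no fold threshold, the split was 15 lower (23.1% of all genes) and 2 higher (21.7%) with ABBV-075. It was 3 lower (5.33%) and 1 higher (6.03%) with ABBV-744 at 50 nM, 9 lower (9.24%) and 2 higher (8.30%) at 500 nM, and 1 lower (1.11%) and 8 higher (3.47%) with IFNg. Against IFNg, 14 members were lower (28.9%) and 2 higher (27.0%) with ABBV-075, 9 lower (18.5%) and 1 higher (16.9%) with ABBV-744 at 50 nM, and 10 lower (19.2%) and 1 higher (17.7%) at 500 nM.

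**Figure D2:**
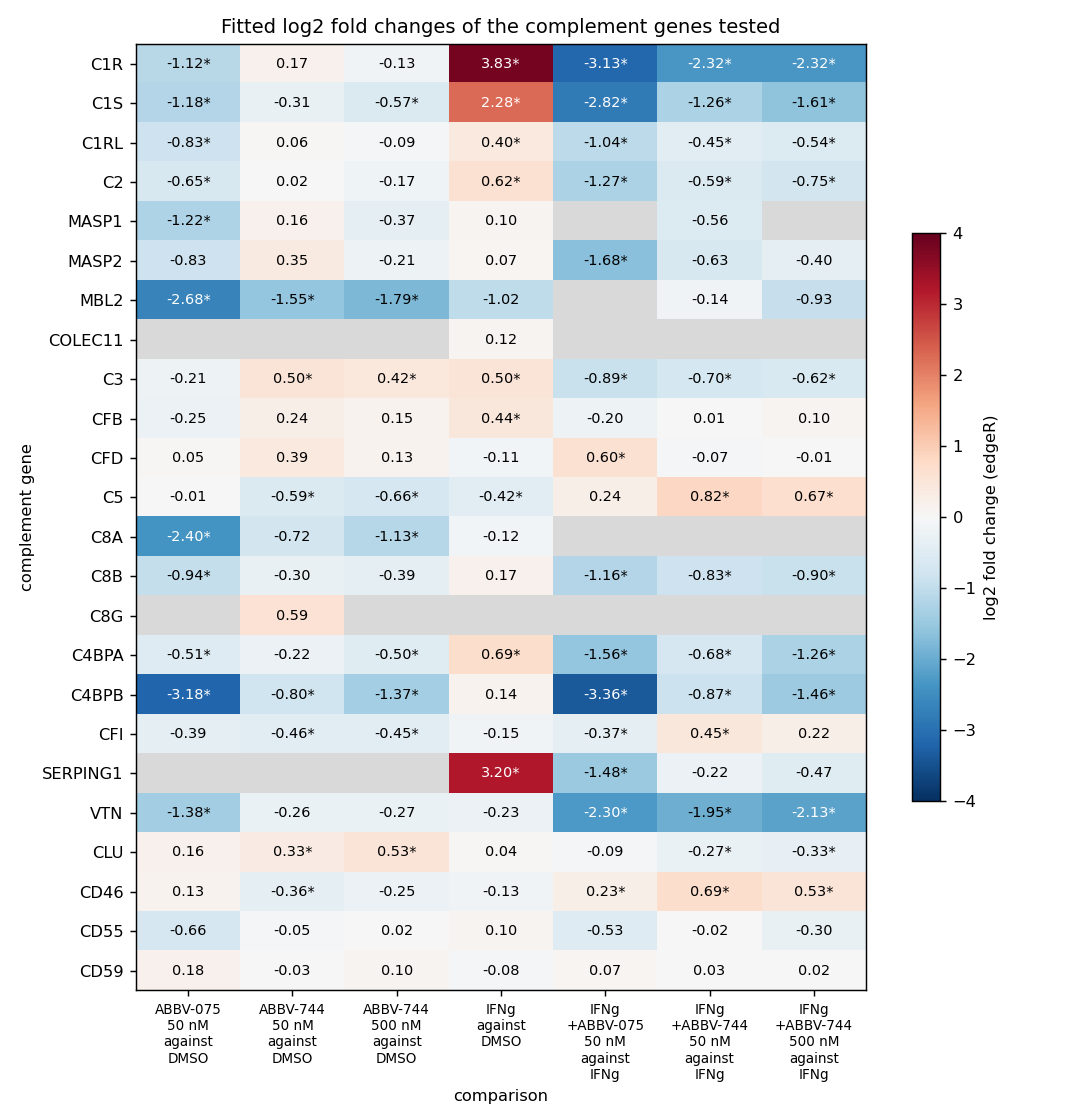
Fitted log2 fold change of 24 members (lines, grouped by role) in the 7 comparisons with DMSO or with IFNg alone (columns). Asterisks mark adjusted p of at most 0.05 and grey cells were not tested. C1R, C1S and SERPING1 are the highest cells in the IFNg column, and C4BPB is the lowest cell in both ABBV-075 columns.

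C1R and C1S, the proteases of the first classical component, rose with IFNg and fell when either inhibitor was added to it. C1R (chr12:7080214-7092540, minus strand, GRCh38) was at 3.48, 5.11 and 5.49 CPM in the DMSO libraries and at 66.0, 66.1 and 72.4 CPM with IFNg. The IFNg libraries lay far above DMSO, with a log2 fold change of 3.83 ± 0.17 (SE), or 14.3-fold (adjusted p = 9.75e-21). With ABBV-075 alone, C1R was at 1.69, 2.58 and 2.41 CPM, all below DMSO, and fell by 1.12 ± 0.34 on the log2 scale (adjusted p = 0.0202). That call rested on 7, 9 and 8 reads against 13, 23 and 23 and was lost without DMSO replicate 2, DMSO replicate 3 or ABBV-075 replicate 1, with log2 fold changes of -1.28 to -0.93 over the leave-one-out fits. ABBV-744 alone left C1R at 5.29 ± 1.27 CPM at 50 nM and 4.32 ± 1.5 CPM at 500 nM, and its libraries overlapped DMSO.

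With IFNg present, each inhibitor lowered C1R. The libraries of IFNg with ABBV-075 were at 9.94, 5.71 and 7.53 CPM, with a log2 fold change of -3.13 ± 0.17 against IFNg (8.76-fold lower, adjusted p = 5.52e-18). Those of IFNg with ABBV-744 were at 12.5, 14.1 and 13.8 CPM at 50 nM and at 19.0, 10.7 and 12 CPM at 500 nM. These libraries stood between DMSO and IFNg alone, and both doses gave a log2 fold change of -2.32, with SE of 0.13 and 0.16. C1R and its neighbour C1RL overlap in 672 exon bases on the same strand, where reads cannot be assigned to either, so the level of each is uncertain by that stretch.

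C1S (chr12:6988259-7071032, plus strand), which C1R activates, was at 25.5, 25.3 and 26.7 CPM in DMSO and at 136, 120 and 121 CPM with IFNg. It rose by 2.28 ± 0.11 on the log2 scale, or 4.87-fold (adjusted p = 2.24e-19). ABBV-075 alone gave 9.65, 13.8 and 11.4 CPM, below every DMSO library, and C1S fell by 1.18 ± 0.18 (adjusted p = 0.000455). ABBV-744 at 500 nM gave 17.4, 16.7 and 17.8 CPM and a log2 fold change of -0.57 ± 0.16 (adjusted p = 0.0152), a call that was lost without DMSO replicate 2 or 3 (-0.59 to -0.54). At 50 nM the libraries, at 16.7, 22.0 and 23.2 CPM, were also below DMSO, and the difference was not called. With IFNg and ABBV-075, C1S was at 18.1, 16.0 and 19.6 CPM, under every DMSO library, and fell by 2.82 ± 0.13 from IFNg alone (7.07-fold lower, adjusted p = 8.46e-20). With IFNg and ABBV-744 it was at 53.5, 52.0 and 50.0 CPM at 50 nM and at 42.3, 38.9 and 44.0 CPM at 500 nM. These levels lay between DMSO and IFNg alone, with log2 fold changes of -1.26 ± 0.10 and -1.61 ± 0.11.

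C1RL, a C1R-like protease, and C2, the protease subunit of the classical and lectin C3 convertase, moved in the same directions by less. C1RL was at 38.6, 40.2 and 46.5 CPM in DMSO, at 21.7, 27.3 and 22.6 CPM with ABBV-075 and at 59.2, 55.2 and 51.2 CPM with IFNg. None of these groups overlapped. It fell by 0.83 ± 0.16 with ABBV-075 (adjusted p = 0.00148) and rose by 0.40 ± 0.12 with IFNg (adjusted p = 0.0454), a call lost without DMSO replicate 1 or 2 or IFNg replicate 1 or 2 (0.34 to 0.48). Against IFNg, it fell by 1.04 ± 0.14 with ABBV-075, to 29.3, 22.8 and 28.6 CPM, and by 0.45 ± 0.12 and 0.54 ± 0.13 with ABBV-744 at 50 and 500 nM. With the GC correction the ABBV-744 values were -0.18 and -0.26 and were not called.

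C2 (chr6:31897785-31945673, plus strand) was at 68.1, 63.3 and 66.1 CPM in DMSO, at 30.2, 41.3 and 56.8 CPM with ABBV-075 and at 98.5, 94.2 and 111 CPM with IFNg. The ABBV-075 libraries were spread widely but all lay under DMSO (log2 fold change -0.65 ± 0.19, adjusted p = 0.0194). That call was lost without any single DMSO library or ABBV-075 replicate 2 (-0.91 to -0.44). With ABBV-744 at 500 nM its value of -0.17 was not called, and -0.28 with the GC correction was. C2 rose by 0.62 ± 0.10 with IFNg, or 1.54-fold (adjusted p = 1.74e-05). From IFNg alone it fell by 1.27 ± 0.12 when ABBV-075 was added, to 40.3, 41.1 and 45.8 CPM. With IFNg and ABBV-744 the mean was 66.4 ± 8.94 CPM at 50 nM and 60.8 ± 3.93 CPM at 500 nM, close to DMSO, with log2 fold changes of -0.59 ± 0.11 and -0.75 ± 0.11 against IFNg (-0.26 and -0.46 with the GC correction, both called).

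**Figure D3:**
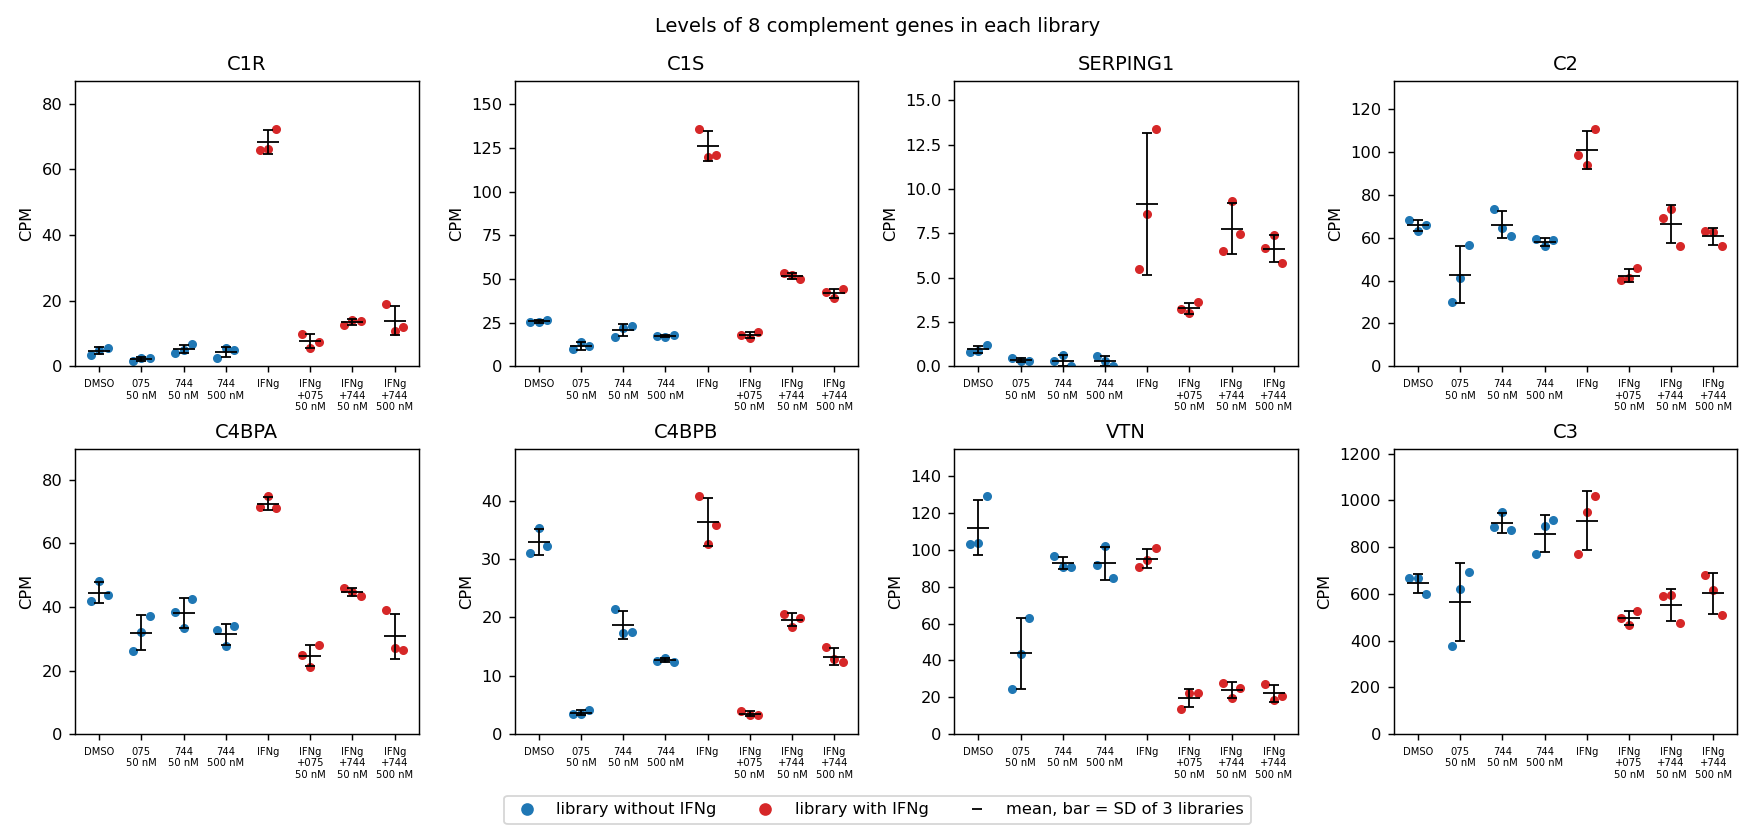
CPM of C1R, C1S, SERPING1, C2, C4BPA, C4BPB, VTN and C3 in the 24 libraries by group, with the group mean and SD (n = 3). C1R and C1S are highest in the 3 libraries with IFNg and no inhibitor, and C4BPB lies under 5 CPM in all 6 libraries with ABBV-075.

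The lectin pathway genes were expressed at low levels. MBL2, mannose-binding lectin, was at 7.77, 4.66 and 10.7 CPM in DMSO and at 0.965, 0.574 and 2.10 CPM with ABBV-075. The groups did not overlap, and MBL2 fell by 2.68 ± 0.46 on the log2 scale (6.41-fold lower, adjusted p = 0.000900). The reads were 4, 2 and 7 with ABBV-075 against 29, 21 and 45 in DMSO. ABBV-744 gave 2.98, 2.20 and 2.54 CPM at 50 nM and 3.20, 1.60 and 1.73 CPM at 500 nM, with log2 fold changes of -1.55 ± 0.36 (adjusted p = 0.00429) and -1.79 ± 0.37 (adjusted p = 0.00125). The call at 50 nM was lost without DMSO replicate 3, the highest of its group (-1.82 to -1.22). With IFNg alone MBL2 was at 4.64, 4.13 and 2.52 CPM, and the log2 fold change of -1.02 was not called (adjusted p = 0.0737). Adding ABBV-744 to IFNg gave -0.14 at 50 nM and -0.93 at 500 nM, not called, and -0.95 and -1.57 with the GC correction, both called.

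MASP1 and MASP2, the proteases that cleave the next components for lectins, were at 2.98 ± 0.110 and 7.64 ± 2.94 CPM in DMSO. MASP1 was at 0.724, 1.72 and 1.5 CPM with ABBV-075 against 2.95, 2.89 and 3.10 CPM in DMSO (log2 fold change -1.22 ± 0.40, adjusted p = 0.0301), and the call was lost without any single DMSO library or ABBV-075 replicate 1 (-1.46 to -0.88). Its reads were 3, 6 and 5 with ABBV-075 against 11, 13 and 13 in DMSO. MASP2 with ABBV-075 alone, at 4.58, 2.01 and 6.31 CPM, overlapped DMSO and had a log2 fold change of -0.83 that was not called (adjusted p = 0.0988). When ABBV-075 was added to IFNg, MASP2 went from 8.46, 6.79 and 8.39 CPM to 2.49, 1.90 and 3.01 CPM and fell by 1.68 ± 0.32 (adjusted p = 3.08e-05). The reads of MASP2 were 10, 7 and 10 with the combination against 31, 23 and 30 with IFNg alone. COLEC11, a collectin that recognises sugars, had too few counts for most tests. Its 3 ABBV-075 libraries held 7 reads and its DMSO libraries 32, a ratio of 0.248 (95% exact interval 0.0925 to 0.572) that covers counting error only.

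C3 responded in opposite directions to ABBV-744 with and without IFNg. C3 (chr19:6677704-6730562, minus strand) was at 668, 667 and 600 CPM in DMSO and at 773, 951 and 1017 CPM with IFNg. It rose by 0.50 ± 0.08 on the log2 scale, or 1.41-fold (adjusted p = 9.32e-06). ABBV-075 alone gave 379, 622 and 696 CPM in replicates 1 to 3, a spread that covered the DMSO libraries and was lowest in the replicate with the lowest GC slope, and the difference was not called (log2 fold change -0.21, adjusted p = 0.375). ABBV-744 alone gave 887, 952 and 874 CPM at 50 nM and 769, 889 and 917 CPM at 500 nM. All 6 libraries lay above DMSO, with log2 fold changes of 0.50 ± 0.09 (adjusted p = 0.000478) and 0.42 ± 0.09 (adjusted p = 0.00132), and with the GC correction of 0.31 and 0.30, both called. Against IFNg alone the same inhibitor lowered C3, to 590, 595 and 475 CPM at 50 nM and 681, 618 and 509 CPM at 500 nM. The log2 fold changes were -0.70 ± 0.09 and -0.62 ± 0.10, or -0.36 and -0.31 with the GC correction, all called. ABBV-075 with IFNg gave 496, 467 and 525 CPM, under every DMSO library, and a log2 fold change of -0.89 ± 0.09 against IFNg.

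CFB (chr6:31945650-31952086, plus strand), the protease subunit of the alternative C3 convertase, was called in none of the 6 comparisons of an inhibitor with DMSO or IFNg. It was at 211, 219 and 206 CPM in DMSO and at 268, 301 and 293 CPM with IFNg, where it rose by 0.44 ± 0.08 (1.35-fold, adjusted p = 8.96e-05). With IFNg and an inhibitor the group means ran from 252 ± 13.8 CPM with ABBV-075 to 310 ± 21.8 CPM with ABBV-744 at 500 nM. The log2 fold changes against IFNg were -0.20 (adjusted p = 0.0544) with ABBV-075, 0.01 with ABBV-744 at 50 nM and 0.10 at 500 nM, none of them called, although the GC-corrected values of 0.30 and 0.38 with ABBV-744 were. ABBV-075 alone, at 187, 167 and 189 CPM, lay under DMSO without being called (log2 fold change -0.25, adjusted p = 0.0836). CFD, which cleaves factor B, went from 5.18, 7.68 and 8.11 CPM with IFNg to 9.94, 11.7 and 10.2 CPM with IFNg and ABBV-075. It rose by 0.60 ± 0.25 (adjusted p = 0.0375), a call lost without IFNg replicate 1 or replicate 2 or 3 of the combination (0.42 to 0.71).

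Of the terminal components, C8A and C8B, chains of the pore protein C8, were called lower with ABBV-075, and C5, whose cleavage starts the pore, was called with the GC correction only. C8A was at 5.36, 4.66 and 5.96 CPM in DMSO and at 1.45, 1.15 and 0.301 CPM with ABBV-075. It fell by 2.40 ± 0.41 on the log2 scale, or 5.26-fold (adjusted p = 0.000865), on 6, 4 and 1 reads with ABBV-075 against 20, 21 and 25 in DMSO. C8B went from 9.38, 10.2 and 12.6 CPM to 4.34, 7.47 and 5.41 CPM, with a log2 fold change of -0.94 ± 0.26 (adjusted p = 0.0126) that was not called without DMSO replicate 3 (-1.17 to -0.75). ABBV-744 at 500 nM gave C8A at 1.45, 3.52 and 2.30 CPM (log2 fold change -1.13 ± 0.36, adjusted p = 0.0306), and this call was lost without any single DMSO library or ABBV-744 replicate 1 or 3 (-1.48 to -0.86). In the comparisons with IFNg, C8A was under the count filter. Its reads over 3 libraries were 52 with IFNg, 6 with ABBV-075 added (ratio 0.111, 95% exact interval 0.0391 to 0.259), 9 with ABBV-744 at 50 nM added (0.163, 0.0705 to 0.333) and 19 at 500 nM (0.403, 0.225 to 0.694). C8B fell by 1.16 ± 0.26, 0.83 ± 0.24 and 0.90 ± 0.26 when ABBV-075 and the low and high dose of ABBV-744 were added to IFNg, and the last call was lost without replicate 1 of the combination (-1.17 to -0.65). C8G had at most 4.40 CPM in any library.

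C5 was at 52.8, 61.7 and 49.4 CPM in DMSO and at 65.1, 58.9 and 40.6 CPM with ABBV-075, which overlapped, with a log2 fold change of -0.01 that became -0.34 (adjusted p = 0.0263) with the GC correction. With ABBV-744 alone it was at 48.0, 27.3 and 32.4 CPM at 50 nM and 42.2, 25.3 and 35.4 CPM at 500 nM, below DMSO, with log2 fold changes of -0.59 ± 0.15 (adjusted p = 0.00945) and -0.66 ± 0.15 (adjusted p = 0.00211). At 50 nM the call was lost without DMSO replicate 2 or ABBV-744 replicate 3 (-0.85 to -0.43) and with the GC correction (-0.32, adjusted p = 0.0954). IFNg alone gave 39.8, 44.9 and 38.6 CPM (log2 fold change -0.42 ± 0.12, adjusted p = 0.0377), a call lost without DMSO replicate 1 or 2 or IFNg replicate 1 or 3 (-0.49 to -0.32) and with the GC correction (-0.33, adjusted p = 0.0747). Added to IFNg, ABBV-744 gave 72.8, 69.8 and 71.8 CPM at 50 nM and 83.2, 61.4 and 55.0 CPM at 500 nM. These libraries were above every IFNg library, with log2 fold changes of 0.82 ± 0.11 and 0.67 ± 0.14, but with the GC correction of 0.21 and 0.20, which were not called. C5 has a low GC content, 39.6%, and the part of the GC trend in its change was not tested.

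Among the soluble regulators, the beta chain of C4b-binding protein (C4BPB) was the member most lowered by ABBV-075. C4BPB (chr1:207088860-207099993, plus strand) was at 31.1, 35.3 and 32.2 CPM in DMSO and at 3.38, 3.45 and 4.21 CPM with ABBV-075. The libraries of each group lay close together, and the log2 fold change was -3.18 ± 0.21 (9.06-fold lower, adjusted p = 7.87e-07). ABBV-744 lowered it less, to 21.5, 17.3 and 17.5 CPM at 50 nM and 12.5, 13.1 and 12.4 CPM at 500 nM, with log2 fold changes of -0.80 ± 0.16 (adjusted p = 0.00115) and -1.37 ± 0.17 (adjusted p = 7.54e-07). IFNg left it at 40.7, 32.5 and 35.8 CPM (log2 fold change 0.14, adjusted p = 0.688). The levels with IFNg and inhibitor were close to those with the inhibitor alone, at 3.52 ± 0.398 CPM with ABBV-075, 19.6 ± 1.10 CPM with ABBV-744 at 50 nM and 13.3 ± 1.44 CPM at 500 nM. Against IFNg these were log2 fold changes of -3.36 ± 0.22, -0.87 ± 0.14 and -1.46 ± 0.17, all called, and none of the C4BPB calls was lost when a library was left out.

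C4BPA, the alpha chain of the same inhibitor of the classical convertase and the neighbouring gene (chr1:207104233-207144972, plus strand), had another pattern. It was at 41.8, 48.2 and 43.6 CPM in DMSO and at 71.5, 74.7 and 71.0 CPM with IFNg, and rose by 0.69 ± 0.11 on the log2 scale (1.62-fold, adjusted p = 1.27e-05). ABBV-075 alone gave 26.3, 32.2 and 37.3 CPM, and C4BPA fell by 0.51 ± 0.16 (adjusted p = 0.0243), a call lost without any single DMSO library or ABBV-075 replicate 1 or 2 (-0.64 to -0.38). ABBV-744 at 500 nM gave 32.6, 27.6 and 33.9 CPM, all below DMSO (log2 fold change -0.50 ± 0.14, adjusted p = 0.0112, not called without DMSO replicate 2, range -0.56 to -0.42). Added to IFNg, ABBV-075 brought C4BPA to 24.9, 21.2 and 28.0 CPM (-1.56 ± 0.13), and ABBV-744 to 45.8, 44.6 and 43.4 CPM at 50 nM (-0.68 ± 0.11) and 39.0, 27.0 and 26.4 CPM at 500 nM (-1.26 ± 0.13). All 3 were called.

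SERPING1 (chr11:57597387-57619171, plus strand) encodes C1 inhibitor, which inactivates C1R, C1S and the MASP proteases. Only 3, 4 and 5 reads were counted in the DMSO libraries, against 20, 29 and 48 with IFNg. In CPM these were 0.804, 0.888 and 1.19 against 5.46, 8.56 and 13.4, a log2 fold change of 3.20 ± 0.41 (9.17-fold, adjusted p = 2.52e-07). Without IFNg the inhibitor groups had at most 2 reads in a library, under the filter. With IFNg and ABBV-075 it was at 3.23, 2.99 and 3.62 CPM, below each IFNg library, and fell by 1.48 ± 0.32 (adjusted p = 0.000173). With IFNg and ABBV-744 it was at 6.51, 9.32 and 7.46 CPM at 50 nM and at 6.66, 7.42 and 5.84 CPM at 500 nM. These libraries overlapped those of IFNg alone, and the log2 fold changes of -0.22 (adjusted p = 0.516) and -0.47 (adjusted p = 0.187) were not called.

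VTN (chr17:28367284-28373091, minus strand), vitronectin, was at 103, 104 and 129 CPM in DMSO and 24.6, 43.6 and 63.1 CPM with ABBV-075. It fell by 1.38 ± 0.25 on the log2 scale, or 2.61-fold (adjusted p = 0.00120), and the ABBV-075 libraries differed from each other by more than those of other groups. ABBV-744 alone left it at 96.9, 90.8 and 90.8 CPM at 50 nM and 91.6, 102 and 84.5 CPM at 500 nM, and IFNg alone at 90.6, 94.5 and 101 CPM. These differences from DMSO were not called, with log2 fold changes of -0.26, -0.27 and -0.23, although each was called with the GC correction (-0.48, -0.40 and -0.31). With IFNg and ABBV-744, in contrast, VTN was at 28.0, 19.5 and 25.1 CPM at 50 nM and 27.3, 18.4 and 20.6 CPM at 500 nM. It fell by 1.95 ± 0.12 (3.86-fold, adjusted p = 1.89e-14) and 2.13 ± 0.13 (adjusted p = 1.31e-13) from IFNg alone, and the GC-corrected values were -1.61 and -1.88, both called. With IFNg and ABBV-075 it was at 13.9, 22.3 and 22.6 CPM and fell by 2.30 ± 0.14 (adjusted p = 3.72e-16).

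CLU, clusterin, which binds the forming pore, and CFI, the protease that inactivates C3 and C4 fragments, moved by less. CLU was at 133, 121 and 119 CPM in DMSO, 148, 156 and 159 CPM with ABBV-744 at 50 nM and 163, 185 and 189 CPM at 500 nM. It rose by 0.33 ± 0.10 (adjusted p = 0.0215) and 0.53 ± 0.10 (adjusted p = 0.000252). The lower dose was not called without DMSO replicate 2 or 3 or ABBV-744 replicate 3 (0.30 to 0.37), nor with the GC correction (0.19, adjusted p = 0.115). With ABBV-075 the value of CLU was 0.16 without IFNg and -0.09 with it, neither called, while 0.32 and 0.19 with the GC correction were called higher. Against IFNg, ABBV-744 gave log2 fold changes of -0.27 and -0.33, both called, and 0.01 and -0.05 with the GC correction, not called. The call at 50 nM was also lost without IFNg replicate 2 or replicate 1 or 3 of the combination (-0.36 to -0.24). CFI was at 74.5, 83.0 and 80.6 CPM in DMSO, 74.3, 62.0 and 47.5 CPM with ABBV-075 and 76.9, 70.6 and 67.4 CPM with IFNg. With ABBV-075 its log2 fold change was -0.39 (adjusted p = 0.0626), not called, and -0.64 (adjusted p = 0.000128), called, with the GC correction. It fell by 0.46 ± 0.14 with ABBV-744 at 50 nM, to 69.5, 39.0 and 62.9 CPM, and by 0.45 ± 0.11 at 500 nM, to 65.1, 54.1 and 54.1 CPM. The call at 50 nM was lost without DMSO replicate 2 or 3 or ABBV-744 replicate 2 or 3 (-0.62 to -0.25) and with the GC correction (-0.23), and the call at 500 nM without DMSO replicate 2 or ABBV-744 replicate 3 (-0.54 to -0.41). With IFNg and ABBV-744 at 50 nM, at 106, 88.4 and 95.9 CPM, CFI was 0.45 ± 0.10 above IFNg on the log2 scale, but the GC-corrected value was -0.04 and not called. With IFNg and ABBV-075 it was at 60.2, 59.3 and 47.3 CPM and fell by 0.37 ± 0.12 (adjusted p = 0.00914), a call lost without replicate 3 of the combination (-0.43 to -0.27), and the GC-corrected value was -0.70 (adjusted p = 2.95e-08).

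Of the membrane regulators, which protect the cell's own surface, CD55 and CD59 were called in no comparison without the GC correction, and CD46 was sensitive to the GC trend. CD55, which speeds the decay of convertases, was at 12.9, 7.55 and 8.35 CPM in DMSO, 7.0, 6.60 and 4.51 CPM with ABBV-075 and 10.1, 11.5 and 8.95 CPM with IFNg. The ABBV-075 libraries lay under DMSO, with a log2 fold change of -0.66 (adjusted p = 0.0765), and the GC-corrected value of -0.91 was called. With IFNg, ABBV-075 gave -0.53 (adjusted p = 0.0680) and ABBV-744 at 500 nM gave -0.30, not called, and with the GC correction -0.85 (adjusted p = 0.00241) and -0.65 (adjusted p = 0.0283), both called lower. CD59, which blocks the pore, was at 186, 186 and 191 CPM in DMSO and 212, 219 and 218 CPM with ABBV-075, with 169 to 222 CPM over all 24 libraries. Its log2 fold change of 0.18 with ABBV-075 was not called (adjusted p = 0.164), and the GC-corrected value of 0.20 was. CD46, a cofactor for factor I with a GC content of 37.7%, was at 222, 276 and 263 CPM in DMSO, 202, 171 and 217 CPM with ABBV-744 at 50 nM, and 384, 363 and 364 CPM with IFNg and that dose against 253, 218 and 225 CPM with IFNg. The log2 fold changes of -0.36 ± 0.10 (adjusted p = 0.0175, lost without DMSO replicate 2 or 3, -0.45 to -0.27) and 0.69 ± 0.08 (adjusted p = 6.41e-09) became -0.02 and -0.09 with the GC correction, neither of them called. With IFNg and ABBV-075 the value of 0.23 ± 0.09 (adjusted p = 0.0360, lost without IFNg replicate 2 or 3 or replicate 1 or 2 of the combination, 0.15 to 0.30) became -0.36, called in the other direction, so no direction can be given for CD46.

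Whether an inhibitor acted differently with IFNg was tested as an interaction over the 12 libraries of 4 groups, as the log2 effect with IFNg minus the effect without. For ABBV-075, 1 of 23 tested members was called lower (0.0173% of all genes) and 0 higher (0.0173%). That member was C1S, at -1.66 ± 0.22 (95% interval -2.11 to -1.21, adjusted p = 0.00131). C1R had a value of -2.03 ± 0.41 (adjusted p = 0.108) and C4BPA of -1.07 ± 0.21 (adjusted p = 0.101), neither of them called. At an unadjusted p under 0.05, C1R, C1S, C2, C3, C4BPA and VTN passed in this test, and the GC correction gave 2 called members, C1S at -1.55 and C4BPA at -1.04, both lower (0.0520% of all genes, and 0.0694% higher). For ABBV-744 at 50 nM, 11 of 23 members were lower (26.5% of all genes) and 4 higher (25.0%), and at 500 nM, 7 of 22 were lower (15.0%) and 3 higher (18.5%). With the GC correction these became 6 lower (12.1% of all genes) and 1 higher (10.2%) at 50 nM, and 6 lower (9.45%) and 2 higher (8.08%) at 500 nM. The calls that held both ways at both doses were C1R (-2.51 ± 0.32 and -2.16 ± 0.38), C1S (-0.97 ± 0.18 and -1.02 ± 0.18), C3 (-1.23 ± 0.13 and -1.01 ± 0.14), C4BPA (-0.49 and -0.73), VTN (-1.72 ± 0.17 and -1.84 ± 0.18) and C5 (1.38 ± 0.20 and 1.36 ± 0.22). The C4BPA call at 50 nM was lost without ABBV-744 replicate 3 (-0.58 to -0.40). Another scaling, by library size only, moved the median of all genes from -0.14 to 0.04 in the 50 nM interaction and gave 4 members higher and 7 lower.

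**Figure D4:**
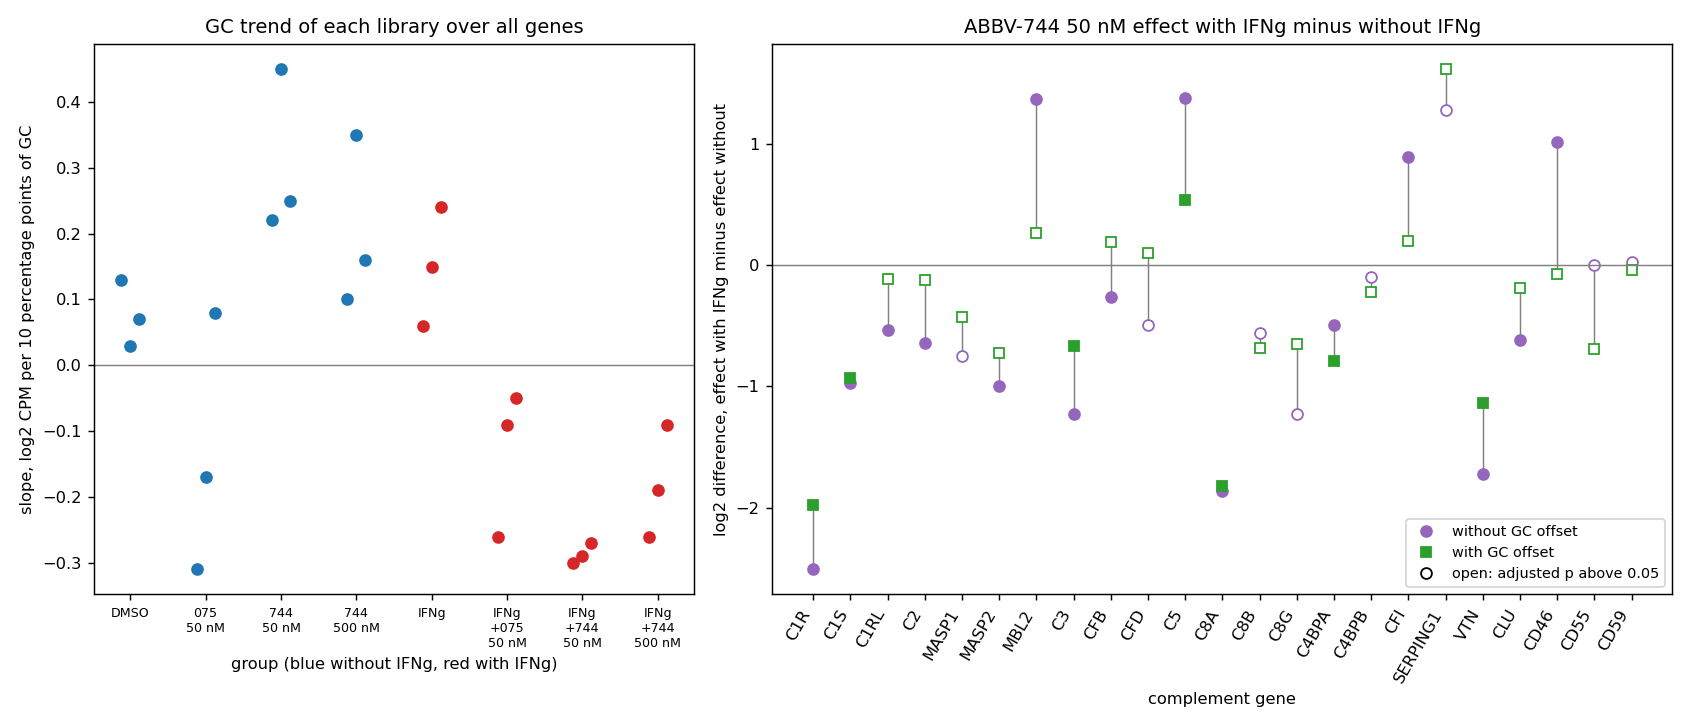
Left, slope of log2 CPM on GC content (per 10 percentage points) in each of the 24 libraries by group. Right, the log2 effect of ABBV-744 at 50 nM with IFNg minus the effect without (y axis) for each tested member (x axis), without (circles) and with (squares) the GC correction, with open symbols for an adjusted p above 0.05. The ABBV-744 libraries stand above 0 without IFNg and below 0 with it, and the squares of CD46, CFI and C2 lie near 0 while those of C1R, VTN and C3 keep values of -1.98, -1.14 and -0.67.

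ABBV-075 and ABBV-744 were compared directly at 50 nM without IFNg, 1 pair of compounds at 1 matched dose, although the times are known for ABBV-075 only. ABBV-075 gave the lower level for 9 of 18 tested members (19.4% of all genes) and the higher for 1 (21.4%). Of the 9, C1R and MASP2 had enough counts for the test with ABBV-744 only, so only a lower call was open to them. C4BPB differed most, at 3.68 ± 0.462 CPM against 18.7 ± 2.37 CPM, a log2 difference of -2.36 ± 0.23 (95% interval -2.87 to -1.84, adjusted p = 0.000219). VTN, at -1.10 ± 0.26 (adjusted p = 0.00775), C1RL, at -0.87 ± 0.18 (adjusted p = 0.00424), and C1S, at -0.84 ± 0.22 (adjusted p = 0.0117), were also lower with ABBV-075 and kept their calls with the GC correction, under which 8 members were lower (17.6% of all genes) and 0 higher (16.4%). C1S was not called without ABBV-744 replicate 3 (-0.97 to -0.70). C1R (-1.26 ± 0.34), C2 (-0.65 ± 0.21), C3 (-0.69 ± 0.19), CFB (-0.47 ± 0.11) and CD46 (0.51 ± 0.14, the 1 higher member) were called, and were not with the GC correction, at -0.91, -0.33, -0.35, -0.17 and -0.23. Leaving out 1 library also ended the calls of C1R (without ABBV-075 replicate 1 or ABBV-744 replicate 3, -1.40 to -1.06), CFB (without ABBV-075 replicate 2, -0.49 to -0.40), CD46 (without replicate 2 of either group, 0.40 to 0.61), C2 (without any ABBV-744 library or ABBV-075 replicate 1 or 2, -0.90 to -0.43) and MASP2 (without replicate 1 or 2 of either group, -1.48 to -0.81), which had a value of -1.15 ± 0.38. C4BPA (-0.27), CFI (0.10) and CD55 (-0.59) were not called and were called lower with the GC correction, at -0.48, -0.39 and -1.08. With IFNg the compounds were not compared by a test, and the levels at 50 nM stood at 17.9 ± 1.78 CPM with ABBV-075 against 51.8 ± 1.76 CPM with ABBV-744 for C1S, 24.7 ± 3.41 against 44.6 ± 1.21 for C4BPA and 19.6 ± 4.93 against 24.2 ± 4.31 for VTN.

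Between the doses of ABBV-744, 500 nM against 50 nM, edgeR's quasi-likelihood test called 0 of 18 tested members, beside 0.0274% of all genes lower and 0% higher. At an unadjusted p under 0.05 it gave 1 member, C4BPB, and DESeq2 called 0 and gave 2, C4BPB and C8G. The GC correction also gave 0 calls, beside 0.119% of all genes lower and 0.00912% higher. The log2 difference of C4BPB was -0.57 ± 0.20 (95% interval -0.99 to -0.15, adjusted p = 0.768). The intervals were -0.30 to 0.14 for C3, -0.25 to 0.24 for VTN, -0.66 to 0.15 for C1S and -1.03 to 0.43 for C1R, so the precision for the low-count C1R did not reach a change of 2-fold.

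Of 22 other complement genes, listed from the pathway and not from how they moved, 18 were at or under 3 counts in every library, among them the C1q chain genes C1QA, C1QB and C1QC at 0. The 4 tested were CPN1 and CPN2, the subunits of carboxypeptidase N that inactivates the small complement fragments, C1QBP, a C1q-binding mitochondrial protein, and the integrin chain ITGB2. All 4 were called lower with ABBV-075, beside 19.6% of all genes, although ITGB2 (-0.86, adjusted p = 0.0445) was not called with the GC correction (-0.70, adjusted p = 0.0754). CPN2 went from a mean of 49.7 CPM to 13.1 CPM (log2 fold change -1.94 ± 0.18, adjusted p = 1.45e-05) and CPN1 from 22.9 to 9.09 CPM (-1.37 ± 0.22, adjusted p = 0.000496). With ABBV-744 alone and with IFNg alone, 0 of the 4 were called. Of all genes, 8.81% were higher and 10.1% lower with ABBV-744 at 50 nM, 7.48% and 7.80% at 500 nM, and 2.76% and 0.695% with IFNg. With the GC correction CPN2 was called lower with ABBV-744 at 500 nM (-0.42, adjusted p = 0.0138). When inhibitors were added to IFNg, CPN1, CPN2 and C1QBP were lower in each of the 3 comparisons. Of all genes, 28.4% were lower with ABBV-075, 24.3% with ABBV-744 at 50 nM and 22.8% at 500 nM. CPN2 had log2 fold changes of -2.29 with ABBV-075, -1.53 with ABBV-744 at 50 nM and -1.43 at 500 nM. With the GC correction C1QBP was not called with either dose of ABBV-744, at -0.07 and -0.14.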

How the data were processed

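Ribosomal RNA was depleted, and directional libraries of HepG2 cells were sequenced. Per the submitters' processing notes, the authors used CASAVA 1.8.2, trimmed reads with Trimmomatic 0.33 and mapped them to hg38 (GRCh38) with STAR 2.7.1. The deposited values are raw counts for each gene symbol and library, not normalized. Reads with several alignments, 56% to 69.4% of all reads, are left out of the gene counts. The sense-strand counts were taken, which made up 98.3% to 98.5% of those on either strand.

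In R 4.3.3 with edgeR 4.0.16, the libraries of the groups compared were filtered with filterByExpr, normalized with TMM and tested with glmQLFit and glmQLFTest, without covariates, and p-values were adjusted by Benjamini-Hochberg over all genes tested. The standard error is the size of the log2 fold change divided by the square root of F. Intervals of read ratios are exact at 95% and a group with 3 counts or fewer in each library was at the floor. Alternatives were DESeq2 1.42.0, RLE normalization, library size only, no filter, at least 10 counts in every library, counts of both strands, a joint fit of all 24 libraries, a block for the replicate number, the article's thresholds (adding a log2 change of 1.5 or more in size) and each library left out. The GC correction, an edgeR offset from a lowess curve (span 0.3) of log2 CPM on the GC content of the longest transcript in each library, was chosen after seeing the data. On simulated data for ABBV-075 against DMSO (11198 genes) the test recovered 89 of 100 genes changed 2-fold and called 10 of 10998 unchanged genes. The changed genes were drawn above a minimum mean count, and every gene had the same fixed dispersion. C1R, MBL2, MASP1 and C8A lay under that minimum, so the recovery does not describe them or members with wider spread. The members, lists and tests were chosen with earlier results of these data known. Values by library are given for members called in any comparison, at most 8 per comparison, and for a list of core members. Sequences were read from RefSeq tables with Python 3.11.15, and plots were drawn with matplotlib 3.10.9.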

Additional observations from a re-analysis of the deposited data

Results flagged for a closer look

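The effect of an inhibitor on complement genes differed with and without IFNg in several tests of the difference itself (the log2 effect with IFNg minus the effect without, edgeR's quasi-likelihood test, adjusted over all genes). With ABBV-075 the difference was called for C1S, at -1.66 (adjusted p = 0.00131, -1.55 and called with the GC correction).

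With ABBV-744 at 50 nM the differences that were also called with the GC correction were C1R at -2.51 (-1.98 with the correction), C1S at -0.97 (-0.93), C3 at -1.23 (-0.67), C8A at -1.86 (-1.82), C4BPA at -0.49 (-0.79), VTN at -1.72 (-1.14) and C5 at 1.38 (0.54). Those that were not called with the correction were C1RL at -0.53 (-0.11), C2 at -0.64 (-0.12), MASP2 at -1.0 (-0.72), MBL2 at 1.37 (0.27), CFB at -0.26 (0.19), CFI at 0.89 (0.20), CLU at -0.62 (-0.19) and CD46 at 1.02 (-0.07). The call of C8A was lost without ABBV-744 replicate 1 or replicate 2 of the combination (-2.14 to -1.49), and that of C4BPA without ABBV-744 replicate 3 (-0.58 to -0.40). MASP2 lost its call in 7 of the 12 fits that leave out a library (-1.33 to -0.73), MBL2 in 6 (1.05 to 1.65) and CFB in 10 (-0.31 to -0.23).

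With ABBV-744 at 500 nM the differences also called with the GC correction were C1R at -2.16 (-1.78 with the correction), C1S at -1.02 (-0.92), C3 at -1.01 (-0.61), C4BPA at -0.73 (-0.92), VTN at -1.84 (-1.47), CLU at -0.84 (-0.50) and C5 at 1.36 (0.72). C2 at -0.56 (-0.18), CFI at 0.69 (0.18) and CD46 at 0.80 (-0.02) were not called with the correction. The GC slope of the libraries differed between the same groups, and its part in these values was not tested beyond the correction itself.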

How the results depend on the processing

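Counts are members called, higher and lower together. Against DMSO, ABBV-075 called 11 members, and 7 with at least 10 counts in every library, 17 with the GC correction and 3 at the article's thresholds. ABBV-744 at 50 nM called 7, and 4 and 1 with the GC correction and those thresholds, at 500 nM 9 and 1 with the thresholds, and IFNg 9 and 3. The ABBV-075 interaction called 1, and 3 with DESeq2, 5 without a filter, 2 with all 24 libraries and 2 with the GC correction. The ABBV-744 50 nM interaction called 15, and 9 with DESeq2 and 7 with the GC correction.

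Leaving out 1 library gave 7 to 15 calls for ABBV-075 against DMSO (lowest without DMSO replicate 2 or 3), 3 to 8 for ABBV-744 at 50 nM (without the same libraries), 5 to 10 at 500 nM (without DMSO replicate 2) and 7 to 9 for IFNg. Against IFNg it gave 14 to 16 with ABBV-075, 13 to 14 with ABBV-744 at 50 nM and 12 to 16 at 500 nM. The interactions gave 1 to 6, 12 to 14 and 10, ABBV-075 against ABBV-744 gave 7 to 12, and the doses of ABBV-744 gave 0.

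The GC correction turned the sign of 13 values that were called with it, without it or both, and the cause was not tested. Values called neither way are not among them. CD46 became -0.26 for ABBV-075 against DMSO, -0.36, -0.09 and -0.10 for ABBV-075 and the low and high dose of ABBV-744 against IFNg, -0.07 and -0.02 in the ABBV-744 interactions and -0.23 for ABBV-075 against ABBV-744. Against IFNg, CLU became 0.19 with ABBV-075 and 0.01 with ABBV-744 at 50 nM, and CFI -0.04 with the latter. CFB became 0.19 and 0.32 in the ABBV-744 interactions at 50 and 500 nM, and CFI -0.39 for ABBV-075 against ABBV-744.

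Replicate numbers showed no steady pairing over all genes, as correlations of same-numbered libraries ran from -0.18 to 0.34 and no comparison had all 3 over 0.1. The GC slope did rise from replicate 1 to 3 with ABBV-075 (-0.31, -0.17 and 0.08), with IFNg (0.06, 0.15 and 0.24) and in each group with IFNg and an inhibitor. A tie of the replicate number to library handling was not tested. With the replicate number as a block, the calls were 10, 6, 9 and 7 against DMSO, 16, 13 and 13 against IFNg, 1, 14 and 10 in the interactions, 11 for ABBV-075 against ABBV-744 and 0 between doses. Over all alternatives, 3863 values kept their side of the threshold (a sign that turned without a call counts here), 169 lost and 73 gained a call, and 13 called values turned sign. Low counts limit C1R, SERPING1, MBL2, MASP1, MASP2 and C8A.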
